A study of Mus musculus with 31 samples.

Results

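Splicing of the transcripts of 3 genes for SR-related splicing proteins, Rsrc1, Sfrs8 (now named Sfswap) and Ccnl2, was followed in the cortex of mouse models of Huntington's disease (HD). All events listed under these 3 symbols were taken, which gave 4 of the 1922 events in the series. They comprised a pair of cassette exons in Rsrc1, 1 cassette exon in Sfrs8 and 1 pair of alternative 3′ splice sites in Ccnl2. The genes had been chosen by their short-to-long ratios in these mice, so those ratios are given as a description. The level of each event, the sum of both its junctions, was not itself used for that choice and was tested. It is built from the same counts as the ratio, so its test is not fully free of the choice.

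SR proteins carry stretches of alternating arginine and serine (RS domains), bind exonic RNA and bring the splicing machinery to nearby splice sites. The proteins here are relatives of that family. Rsrc1 encodes a nuclear RS-rich protein that takes part in constitutive and alternative splicing. Sfrs8 encodes the homologue of the Drosophila suppressor of white apricot, a regulator that acts on the splicing of its own transcript. Ccnl2 encodes cyclin L2, an RS-domain cyclin that partners the CDK11 kinases in nuclear speckles.

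RASL-seq counts pairs of DNA probes that are ligated when they lie next to each other on a spliced RNA, so each event has a short count (exon left out, or the shorter form) and a long count. Total RNA came from the cortex of 1 hemisphere per mouse, from 31 untreated mice. The R6/2 line (B6CBA background) carries a transgene for exon 1 of mutant human huntingtin driven by the human promoter, and 3 R6/2 HD mice were set against 3 R6/2 WT mice, all 3 months old. Q150 mice have an expanded repeat in their own Htt gene that encodes 150 glutamines, on 1 allele in 4 HET mice, whose other allele encodes 7, and on both alleles in 4 HOMO mice. They were set against 5 WT mice with 7 glutamines on both alleles, at 7 months. Q175 mice carry a repeat for 175 glutamines in the same way, in 4 HET and 3 HOMO mice, and were set against 5 further WT mice with 7 glutamines, at 18 months. The labels hold the 10 WT mice of the knock-in lines as 1 group, which was split by the set of events each file lists. The methods of the study name a different strain background for each line, so line, background and age cannot be told apart. The sex of each mouse is not given in the sources used here.

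The exons were identified by the distance between the outer splice sites of each event, because the positions in the files lie inside the named gene on GRCm38 in only 14% of events. That distance is equal to 1 exon-skipping distance in GENCODE for each cassette event of the 3 genes. All 3 cassette exons have a length that is a multiple of 3 and hold no stop codon in the reading frame of the coding exon before them, and all lie on the plus strand. The first Rsrc1 exon has 174 bases (GRCm38, chr3:67082536-67082709) and lies between introns of 85945 and 98119 bases. It is coding in 4 GENCODE transcripts and skipped in 1, and in RefSeq it is included in 8 transcripts and skipped in 2. The later Rsrc1 exon has 153 bases (chr3:67355474-67355626), flanked by introns of 5458 and 594 bases, and is coding in 4 GENCODE transcripts and skipped in 1. The Sfrs8 exon also has 153 bases (chr5:129559469-129559621), between introns of 4760 and 1058 bases. GENCODE places it in 1 transcript of the retained-intron class and has 3 transcripts that skip it, while RefSeq includes it as coding sequence in 7 transcripts and skips it in 6. The 3 exons are shown from GRCm38 on the plus strand, with exon bases in capitals and 20 intronic bases on each side in lower case, since these are the segments whose inclusion the counts measure.
Rsrc1 174-base exon, chr3:67082516-67082729: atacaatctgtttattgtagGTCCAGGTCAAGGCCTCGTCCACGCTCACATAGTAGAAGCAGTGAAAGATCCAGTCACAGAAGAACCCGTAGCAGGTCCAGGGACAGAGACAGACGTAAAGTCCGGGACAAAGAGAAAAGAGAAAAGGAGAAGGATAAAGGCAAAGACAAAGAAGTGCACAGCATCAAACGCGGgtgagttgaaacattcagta
Rsrc1 153-base exon, chr3:67355454-67355646: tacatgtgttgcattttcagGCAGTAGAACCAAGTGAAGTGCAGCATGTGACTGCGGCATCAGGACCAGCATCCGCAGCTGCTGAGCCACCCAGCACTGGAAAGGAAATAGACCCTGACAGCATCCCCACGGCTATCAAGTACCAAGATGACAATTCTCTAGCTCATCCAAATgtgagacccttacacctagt
Sfrs8 153-base exon, chr5:129559449-129559641: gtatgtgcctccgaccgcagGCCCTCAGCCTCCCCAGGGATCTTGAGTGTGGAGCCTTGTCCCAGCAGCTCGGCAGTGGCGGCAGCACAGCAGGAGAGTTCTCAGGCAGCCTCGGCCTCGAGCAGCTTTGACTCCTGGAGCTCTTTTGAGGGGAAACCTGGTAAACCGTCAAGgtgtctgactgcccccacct

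The GC content is 52.3% in the 153-base Rsrc1 exon and 61.4% in the Sfrs8 exon. For Ccnl2 the span of the event runs from the end of a donor exon (chr4:155817987) to the end of an acceptor exon (chr4:155820428). GENCODE has acceptors in that span that open exons of 1890 bases, in a retained-intron transcript, and of 100 bases, in a protein-coding transcript. The upstream acceptor also opens a 126-base exon of a transcript classed as subject to nonsense-mediated decay. The study has a list of its probe pairs, which was not analysed here, and which acceptor each pair joins was not determined, so the Ccnl2 ratio has no stated direction in terms of exon length beyond the short and long columns. Each acceptor is shown with 20 intronic bases in lower case and the first 20 exonic bases in capitals.
Ccnl2 upstream acceptor, chr4:155818519-155818558: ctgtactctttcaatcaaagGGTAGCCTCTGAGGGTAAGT
Ccnl2 downstream acceptor, chr4:155820309-155820348: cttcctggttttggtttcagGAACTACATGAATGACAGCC

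Libraries held 2171709 to 4337557 counts in the R6/2 mice, 2970207 to 5219877 in the Q150 set and 3351064 to 5256516 in the Q175 set. All 4 events were listed in every mouse. Summed counts per mouse were 871 to 2432 for Sfrs8 and 3380 to 10184 for the 153-base Rsrc1 exon, whereas the short Ccnl2 junction had 12 to 59 counts. The 95% Wilson intervals cover counting error only, and over all events the 47 pairs of mice of the same group differed by more than counting noise, with 4.26 to 26.0 chi-square per degree of freedom. R6/2 HD mouse 860 stood apart from the other 2 R6/2 HD mice in both Rsrc1 exons, and the values without it are given beside those results. Mouse numbers in the knock-in lines fell into a low and a high series, and all Q175 HET mice were of the low and all Q175 HOMO mice of the high series.

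For the Sfrs8 exon, short junctions made up most counts in WT mice, and a larger share in R6/2 HD, Q150 HET and HOMO, and Q175 HOMO mice. The probe pairs were not calibrated here, so a share of counts is not a share of transcripts. Short junctions made up 73.4%, 72.3% and 72.7% of the Sfrs8 counts in the R6/2 WT mice and 91.1%, 92.2% and 90.9% in the R6/2 HD mice. The 2 groups were far apart. Within each group the mice lay inside one another's counting intervals. The log2 ratio of short to long counts was 1.98 ± 0.14 (SE, n = 3 and 3) higher in R6/2 HD mice, with a 95% interval of 1.68 to 2.29.

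In the Q150 set the short Sfrs8 share was 70.3%, 70.6%, 72.0%, 69.8% and 77.5% in WT mice. It was 79.7%, 81.8%, 79.1% and 84.0% in HET mice, and 91.4%, 87.0%, 87.4% and 83.6% in HOMO mice. Every HET and every HOMO mouse was above every WT mouse, while the HET and HOMO ranges met, since 1 HET mouse lay above 1 HOMO mouse. The log2 ratio was 0.74 ± 0.17 (SE, n = 4 and 5) higher than WT in HET mice and 1.45 ± 0.17 (SE, n = 4 and 5) higher in HOMO mice, and HOMO exceeded HET by 0.71 ± 0.18 (SE, n = 4 and 4). Within the low series of mouse numbers HOMO exceeded HET by 1.06 on this scale (2 and 3 mice), and within the high series by 0.18 (2 mice and 1).

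In the Q175 set the short Sfrs8 share was 71.3%, 75.1%, 74.6%, 72.8% and 68.1% in WT mice, 70.4%, 79.3%, 75.3% and 77.1% in HET mice, and 81.4%, 79.1% and 83.4% in HOMO mice. HOMO mice lay above all WT mice, and 3 of the 4 HET mice did, the other HET mouse lying inside the WT range. The log2 ratio was 0.24 ± 0.12 (SE, n = 4 and 5) higher than WT in HET mice, with a 95% interval of -0.01 to 0.49, and 0.73 ± 0.13 (SE, n = 3 and 5) higher in HOMO mice. The HET value ran from 0.14 to 0.37 when each mouse was left out in turn, and was 0.15 within the low series of mouse numbers (4 and 3 mice).

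Junction by junction, the Sfrs8 difference sat in the form that includes the exon. The long junction stood at 98.2, 111.0 and 130.4 counts per 1000000 counts of the library (CPM) in R6/2 WT mice and at 36.1, 29.3 and 29.5 in R6/2 HD mice, a geometric mean 3.57-fold lower with no overlap. The short junction stood at 271.1, 290.1 and 347.0 CPM in R6/2 WT mice and at 369.0, 344.5 and 293.3 in R6/2 HD mice, and these ranges overlapped. The long junction was likewise 1.65-fold lower in Q150 HET, 2.50-fold lower in Q150 HOMO and 1.69-fold lower in Q175 HOMO mice than in WT, without overlap in each case, whereas the short junction differed from WT by at most 1.10-fold in the knock-in groups and overlapped WT in all of them.

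**Figure D1:**
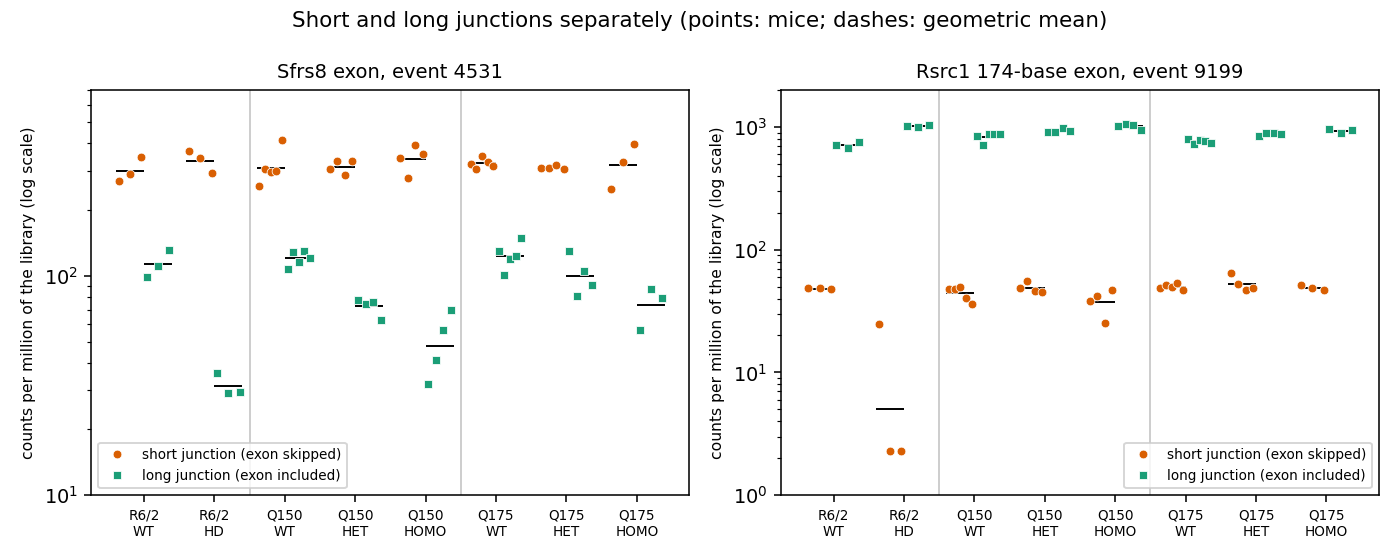
CPM, on a log scale, of the short junction (circles) and the long junction (squares) of the Sfrs8 exon and of the 174-base Rsrc1 exon, 1 point per mouse with the geometric mean of each group as a dash. For Sfrs8 the long junction is lower in mutant groups while the short one stays near 300; for Rsrc1 the short junction is far lower in R6/2 HD mice, at 24.7 CPM in mouse 860 and near 2.3 in the other 2.

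The 174-base exon of Rsrc1 went the opposite way, with less skipping in R6/2 HD mice. Its short junction made up 6.46%, 6.70% and 5.92% of counts in R6/2 WT mice and 2.35%, 0.228% and 0.221% in R6/2 HD mice 860, 868 and 869. The groups did not overlap, and the 3 HD values rest on 85, 9 and 10 short counts beside 3528, 3933 and 4506 long counts. HD mouse 860, with an interval of 1.91% to 2.90%, stood apart from the other 2, whose intervals end at 0.433% and 0.407%. The log2 ratio of HD to WT mice differed by -3.72 ± 0.67 (SE, n = 3 and 3), with a 95% interval of -5.18 to -2.27, and it was -4.84 without mouse 860. The short junction was at 48.9, 48.3 and 47.6 CPM in WT mice and at 24.7, 2.28 and 2.31 in HD mice, while the long junction was 1.43-fold higher in HD mice.

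In the knock-in lines the same exon differed much less. The short share was 5.40%, 6.29%, 5.37%, 4.39% and 3.99% in Q150 WT mice, 5.09%, 5.75%, 4.49% and 4.65% in Q150 HET mice, and 3.60%, 3.86%, 2.38% and 4.70% in Q150 HOMO mice. HET mice lay inside the WT range, and 3 of 4 HOMO mice lay below it. The log2 ratio differed from WT by -0.02 ± 0.18 (SE, n = 4 and 5) in Q150 HET and by -0.53 ± 0.18 (SE, n = 4 and 5) in Q150 HOMO mice, and without HOMO mouse replicate 3 the latter was -0.33.

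The Q175 mice had short shares of the 174-base exon of 5.81%, 6.62%, 5.93%, 6.44% and 5.95% in WT, 7.14%, 5.62%, 5.01% and 5.29% in HET, and 5.04%, 5.13% and 4.76% in HOMO animals. All 3 HOMO mice lay below all WT mice, and the HET mice fell on both sides of them. The log2 ratio differed from WT by -0.11 ± 0.12 (SE, n = 4 and 5) in HET and by -0.32 ± 0.13 (SE, n = 3 and 5) in HOMO mice, with a 95% interval of -0.58 to -0.06 in the latter. When each mouse was left out in turn, the HET value ran from -0.225 to -0.045 and the HOMO value from -0.346 to -0.289. Among the knock-in mice the short junction itself overlapped WT in every group, and the long junction was higher than in every WT mouse in all 4 knock-in groups, by 1.11-fold to 1.22-fold.

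The 153-base exon further along Rsrc1 showed small differences in the other direction. Its short share was 19.9%, 21.0% and 21.6% in R6/2 WT mice and 31.7%, 24.4% and 24.0% in R6/2 HD mice. The groups did not overlap, with mouse 860 the highest. The log2 ratio was 0.46 ± 0.14 (SE, n = 3 and 3) higher in HD mice and 0.28 ± 0.10 higher without mouse 860.

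In the Q150 set the 153-base exon had short shares of 19.4%, 20.6%, 19.9%, 17.8% and 17.9% in WT, 22.3%, 24.3%, 22.3% and 17.6% in HET, and 22.9%, 23.0%, 21.6% and 21.2% in HOMO mice. All HOMO mice were above all WT mice, and HET replicate 4 was below them. In the Q175 set shares ran from 24.4% to 26.9% in WT, from 24.2% to 25.9% in HET and from 24.6% to 26.9% in HOMO mice. These 3 groups covered the same range, and the log2 ratio in Q175 HOMO mice differed from WT by 0.02 ± 0.08 (SE, n = 3 and 5), with a 95% interval of -0.16 to 0.19. The 2 Rsrc1 exons lie in the same transcripts, so their counts are not independent measurements of the gene.

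For Ccnl2 the short junction gave few of the counts. It made up 1.36%, 1.64% and 1.44% of counts in R6/2 WT mice and 4.36%, 2.94% and 3.10% in R6/2 HD mice, from 12, 14 and 22 against 48, 32 and 50 short counts. The groups did not overlap, although the interval of the highest WT mouse, 0.979% to 2.73%, reached above the lower ends of those of mice 868 and 869, 2.09% and 2.36%. The log2 ratio was 1.21 ± 0.28 (SE, n = 3 and 3) higher in HD mice.

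In the Q150 set the short Ccnl2 share was 2.02%, 0.873%, 2.88%, 2.17% and 1.72% in WT, 2.27%, 3.00%, 1.48% and 2.37% in HET, and 2.93%, 3.61%, 1.60% and 2.53% in HOMO mice. All 3 ranges overlapped, and the log2 ratio in HOMO mice differed from WT by 0.51 ± 0.31 (SE, n = 4 and 5), an interval of -0.13 to 1.14. It ran from 0.25 to 0.74 when each mouse was left out in turn, and was 0.93 within the low series (2 and 3 mice) and 0.06 within the high series (2 and 2 mice). In the Q175 set it was 1.75%, 1.31%, 2.75%, 1.71% and 3.42% in WT, 2.26%, 3.74%, 2.71% and 3.27% in HET, and 3.38%, 4.55% and 4.07% in HOMO mice. Only WT replicate 10, at 3.42%, reached the lowest HOMO mouse. The log2 ratio in Q175 HOMO mice was 0.96 ± 0.26 (SE, n = 3 and 5) higher than WT. Within the high series of mouse numbers, which holds 2 of the WT mice, it was 0.73 higher.

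**Figure D2:**
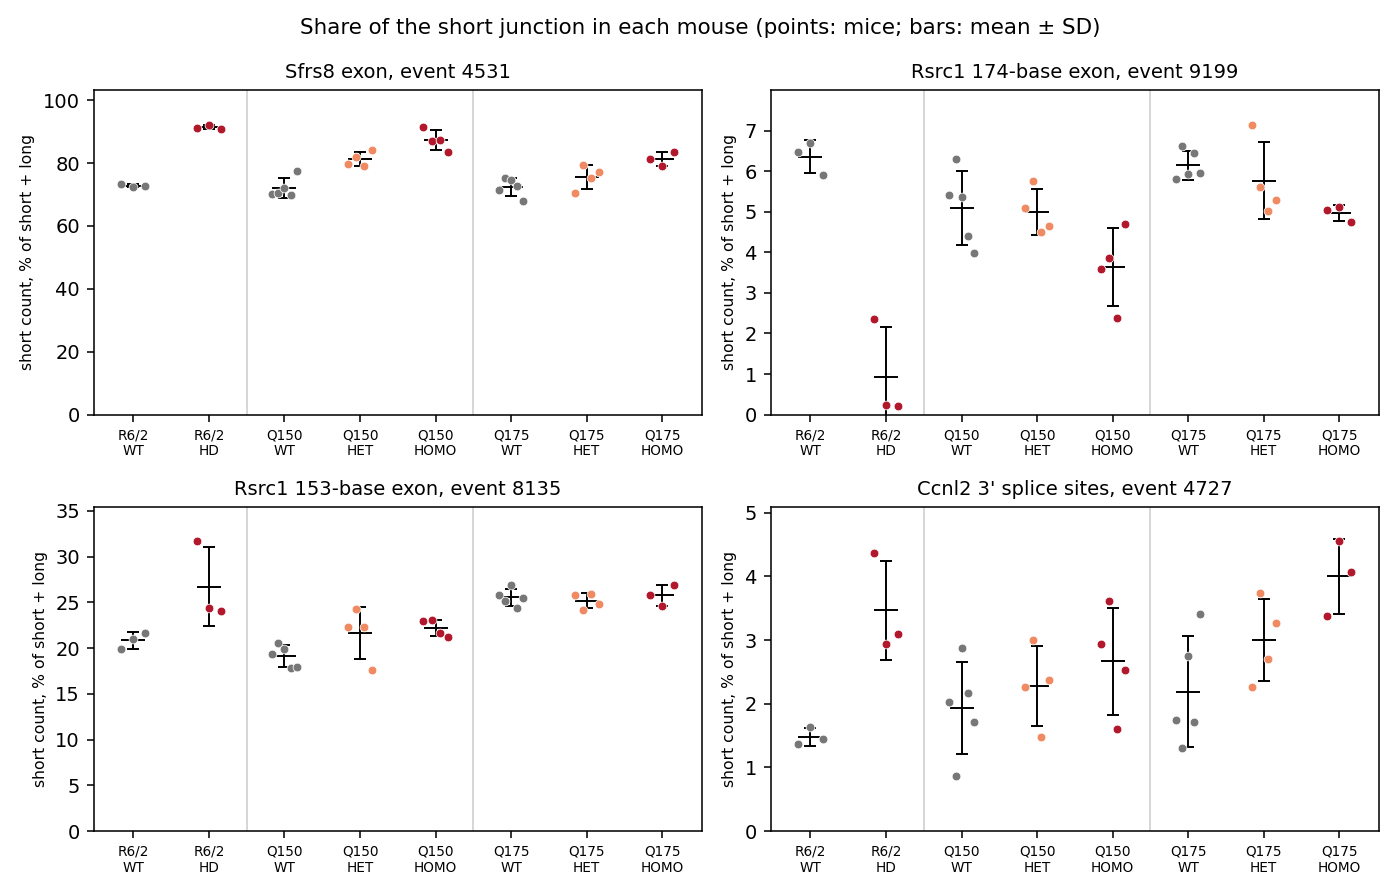
Short counts as a percentage of short plus long counts for the 4 events, 1 point per mouse, with group mean ± SD. Sfrs8 runs from about 72% in all 3 WT groups to 91.4% in R6/2 HD mice, the 174-base Rsrc1 exon falls to a mean of 0.934% in R6/2 HD mice, and the 153-base Rsrc1 exon and Ccnl2 differ less.

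The same limma fit was run on the log2 ratios of all events of each set. Because the genes had been selected on these ratios, the counts of members at a Benjamini-Hochberg adjusted p under 0.05 are set out only to place them on the scale of the whole set, and nothing is read from them. In R6/2 HD mice all 4 events were under that threshold, and so were 28.6% of the 1743 events. In Q150 HOMO mice 2 of 4 were (Sfrs8 and the 174-base Rsrc1 exon) beside 23.9% of 1785 events, and in Q150 HET mice 1 of 4 (Sfrs8) beside 3.47%. In Q175 HOMO mice 2 of 4 were (Sfrs8 and Ccnl2) beside 7.07% of 1839 events, and in Q175 HET mice 0 of 4 beside 0.598%, with 1 of 4 (Ccnl2) at an unadjusted p under 0.05. Between HOMO and HET mice 1 of 4 was (Sfrs8) in the Q150 line, beside 2.18% of events, and 0 of 4 in the Q175 line, beside 0.816%, with 1 (Sfrs8) at an unadjusted p under 0.05. Mutant and WT mice did not overlap in 4, 1, 2, 0 and 2 of the 4 ratios in the R6/2 HD group, the Q150 mutants (HET, then HOMO) and the Q175 mutants (HET, then HOMO), beside 41.8%, 7.45%, 18.2%, 3.43% and 13.6% of all events. The median event itself had shifted towards the short form, by 0.18 in R6/2 HD and 0.19 in Q150 HOMO mice on the log2 ratio, and with each library centred on it the 153-base Rsrc1 exon differed by 0.32 in R6/2 HD mice and by 0.075 in Q150 HOMO mice, where it had been 0.28.

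Membership of these counts changed with single mice and with the fit. Sfrs8 in Q150 HET mice left the count without WT replicate 1 or 4 or HET replicate 1, 2 or 4, and between Q150 HOMO and HET mice it left without HET replicate 1, 2 or 3 or HOMO replicate 1, 2 or 3. Sfrs8 between Q175 HOMO and HET mice entered it without HET replicate 2. The 174-base Rsrc1 exon in Q150 HOMO mice left without WT replicate 1, 2 or 3 or HOMO replicate 1 or 3. When only the 2 groups were fitted it left as well, while the 153-base exon entered. The latter also entered in Q150 HOMO mice with the series of mouse numbers as a term, where its log2 ratio was 0.30 higher than WT, against 0.28 without that term. In R6/2 HD mice the 153-base exon left without HD mouse 860 or any 1 of the WT mice, and after centring on the median event. Ccnl2 in Q175 HOMO mice left without WT replicate 7 or 9 or HOMO replicate 2 or 3, and with the series term. Comparisons within a line share their WT mice.

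Across the 8 groups, the mean short Sfrs8 share was 72.0% ± 3.18 (SD, n = 5) in Q150 WT, 72.4% ± 2.82 (SD, n = 5) in Q175 WT and 72.8% ± 0.546 (SD, n = 3) in R6/2 WT mice, and these 3 ranges overlapped. Next came Q175 HET at 75.5% ± 3.76 (SD, n = 4), Q150 HET at 81.2% ± 2.21 (SD, n = 4) and Q175 HOMO at 81.3% ± 2.13 (SD, n = 3). Q150 HOMO, at 87.4% ± 3.21 (SD, n = 4), was the first group whose range lay wholly above that of its lower neighbour, and R6/2 HD, at 91.4% ± 0.691 (SD, n = 3), overlapped Q150 HOMO. For the 174-base Rsrc1 exon, R6/2 HD at 0.934% ± 1.23 (SD, n = 3) lay below Q150 HOMO at 3.63% ± 0.960 (SD, n = 4), and that group below Q175 HOMO at 4.97% ± 0.194 (SD, n = 3), each without overlap. The 5 groups above Q175 HOMO overlapped their neighbours. For the 153-base Rsrc1 exon, R6/2 HD had the highest mean, 26.7% ± 4.30 (SD, n = 3), and its range overlapped that of Q175 HOMO. The means of the 3 Q175 groups (25.2% to 25.8%) were above those of the 3 Q150 groups (19.1% to 22.2%) whether mutant or WT.

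The level of an event, the sum of its short and long counts in CPM, was not itself used to choose the genes. It shares its counts with the ratio that was used, and for both Rsrc1 events most of it is the long count. Rsrc1 RNA was more abundant in R6/2 HD cortex. The 153-base exon event gave 1710, 1556 and 1696 CPM in R6/2 WT mice and 2151, 2219 and 2348 in R6/2 HD mice. The 174-base exon event gave 757.0, 722.0 and 805.1 CPM in R6/2 WT mice and 1051, 996.4 and 1041 in R6/2 HD mice. In both events every HD mouse exceeded every WT mouse, as in 37.3% of all events. On the log2 level the difference was 0.44 ± 0.07 (SE, n = 3 and 3; 1.35-fold) for each, with limma adjusted p of 0.000216 and 0.000338 over all 1743 events. As background, 44.4% of events passed this test in R6/2 HD mice, 29.5% upwards, and the median over all events was 0.13. With each library centred on its median event the differences were 0.37 for both, with adjusted p of 0.00287 and 0.00239 (limma). In bulk cortex, a change in the number of cells of a type and a change in RNA per cell cannot be told apart.

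In the knock-in lines both Rsrc1 events also passed the test in HOMO mice, higher than in WT, and neither did in HET mice. Against all 10 knock-in WT mice, the 174-base and 153-base exon events passed in Q150 HET mice too (adjusted p of 0.0355 and 0.0202, limma). In that fit 9.24% of all events passed. The 174-base exon event gave 892.2, 761.1, 925.6, 915.3 and 912.4 CPM in Q150 WT, 953.6, 958.9, 1031 and 974.0 in Q150 HET, and 1065, 1095, 1060 and 994.5 in Q150 HOMO mice. Both mutant groups lay above all WT mice, as in 4.2% (HET) and 10.8% (HOMO) of all events. The log2 level was 0.26 ± 0.07 (SE, n = 4 and 5) higher in HOMO mice (adjusted p = 0.0223, limma), where 14.1% of 1785 events passed, and 0.16 ± 0.07 (SE, n = 4 and 5) higher in HET mice (adjusted p = 0.260, limma), where 0.84% did. The 153-base exon event differed in HOMO mice by 0.24 ± 0.07 (SE, n = 4 and 5; adjusted p = 0.0248, limma). The Q150 HOMO calls were lost when each library was centred on its median event (adjusted p of 0.103 and 0.111, limma) and when HOMO replicate 1 (0.0599 and 0.0852) or HOMO replicate 2 (0.0693 and 0.0863) was left out, and that of the 153-base exon event also without WT replicate 4 (0.0516) or WT replicate 5 (0.0539). After centring the differences were 0.17 for the 174-base and 0.16 for the 153-base exon event.

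In the Q175 set the 174-base exon event gave 842.7, 784.7, 837.5, 829.5 and 789.9 CPM in WT, 902.7, 938.3, 934.6 and 930.7 in HET, and 1017, 946.2 and 993.7 in HOMO mice. The 3 groups followed each other without overlap, whereas 3.7% of events had all HET, and 10.8% all HOMO, mice above WT and 6.8% all HOMO above HET mice. HOMO exceeded HET mice by 0.09 ± 0.05 on the log2 level (SE, n = 3 and 4; adjusted p = 0.446, limma). These 2 groups are of different series of mouse numbers, so genotype and series cannot be told apart in that step. The log2 level was 0.27 ± 0.05 (SE, n = 3 and 5; adjusted p = 0.00418, limma) higher than WT in HOMO mice, where 12.8% of 1839 events passed, and 0.18 ± 0.05 (SE, n = 4 and 5; adjusted p = 0.104, limma) higher in HET mice, where 0.109% did. The 153-base exon event was 0.25 ± 0.05 (SE, n = 3 and 5; adjusted p = 0.00636, limma) higher in HOMO mice, a call that was lost with series of mouse numbers as a term (adjusted p = 0.0581, limma) or against all 10 knock-in WT mice (adjusted p = 0.0530, limma). Within the high series the 174-base and 153-base exon events were 0.28 and 0.22 higher in HOMO than in WT mice (3 and 2 mice).

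In HET mice 0 of the 4 levels passed in either line, with 2 of 4, both of Rsrc1, at an unadjusted p under 0.05 in each line. Across the 3 sets, each of the 18 mutant mice thus exceeded all WT mice of its own set in both Rsrc1 events. Of the 1662 events listed in all 3 sets, 5 had this property (0.301%), and 2 of the 5 were those of Rsrc1, which share their RNA. The others were in Srsf2, which encodes a classical SR protein, in G3bp2 and in Ip6k1. This property was looked for after the levels had been seen, so it is a description.

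The levels of Sfrs8 and Ccnl2 did not pass the test in any comparison. Sfrs8 gave 369.3, 401.1 and 477.4 CPM in R6/2 WT mice and 405.1, 373.9 and 322.8 in R6/2 HD mice, overlapping ranges, with a log2 difference of -0.18 ± 0.11 (SE, n = 3 and 3; adjusted p = 0.201, limma). This difference ran from -0.259 to -0.074 when each mouse was left out in turn. The Sfrs8 differences from WT in the knock-in groups lay between -0.12 and -0.19. When each mouse was left out in turn, the widest range among them was in Q175 HOMO mice, from -0.329 to -0.008. Ccnl2 gave 305.8, 393.2 and 431.7 CPM in R6/2 WT mice and 320.2, 275.3 and 371.9 in R6/2 HD mice, also overlapping, with -0.22 ± 0.13 (SE, n = 3 and 3; adjusted p = 0.181, limma), and -0.36 with an adjusted p of 0.0292 (limma) when WT replicate 3 was left out. In Q150 HOMO mice the Ccnl2 level differed from WT by -0.17 ± 0.08 (SE, n = 4 and 5; adjusted p = 0.143, limma), and by -0.26 (adjusted p = 0.0315, limma) after centring on the median event. Between HOMO and HET mice 0 of the 4 levels passed in either line, beside 0% of events in the Q150 and 0.489% in the Q175 line, and 0 of 4 had an unadjusted p under 0.05 (limma).

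**Figure D3:**
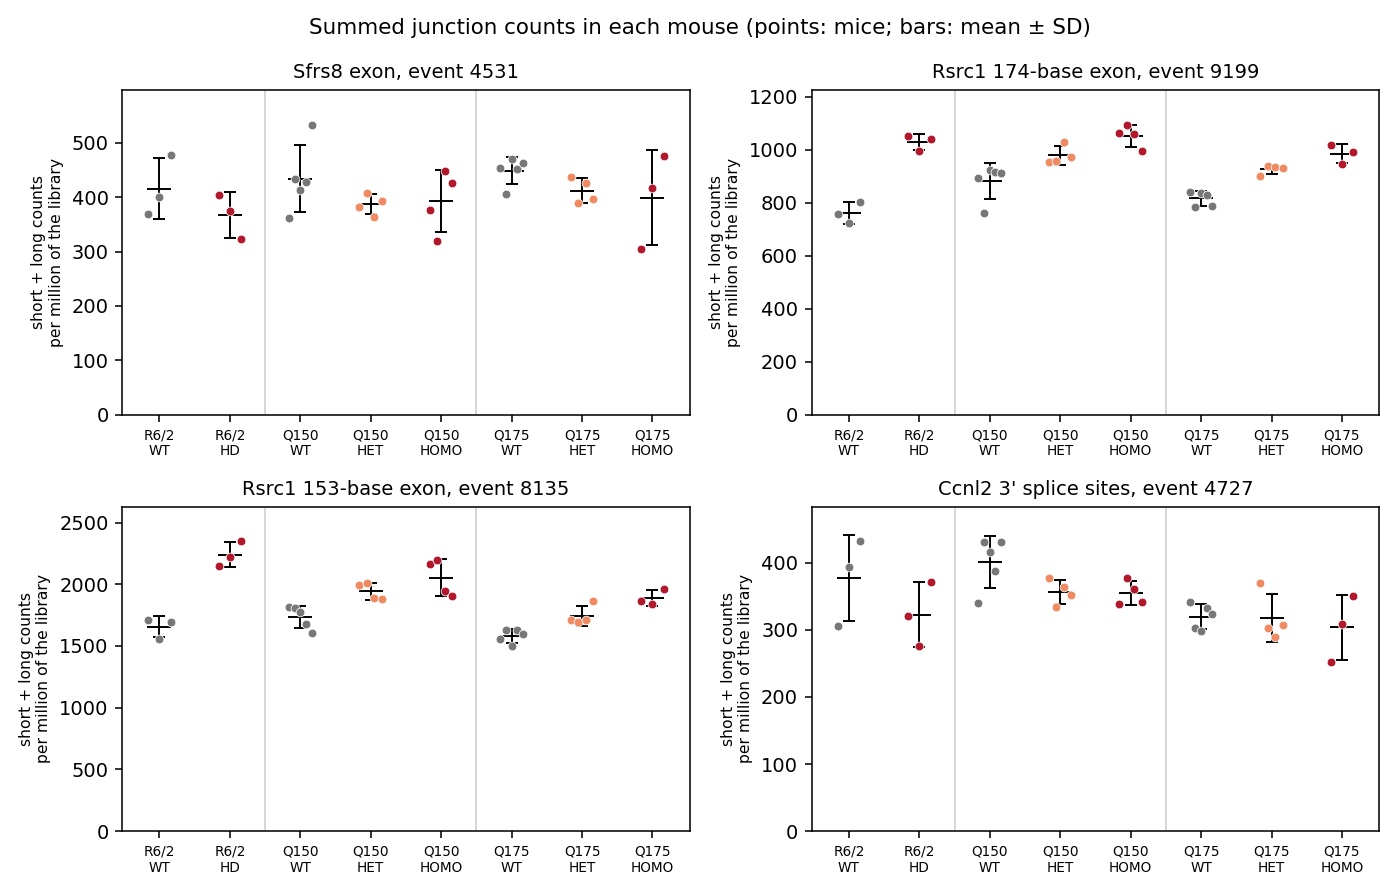
Summed short and long counts in CPM for the 4 events, 1 point per mouse, with group mean ± SD. Both Rsrc1 events are higher in every mutant group than in all WT mice of the same set, and the Sfrs8 and Ccnl2 ranges overlap between mutant and WT mice.

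Markers of the cell types of the cortex were read from the same libraries. Of 11 neuronal markers 5 had events (Gria2, Grin1, Mapt, Mtap2 and Syt1), and their summed level was 37852 to 41832 CPM in R6/2 WT and 30802 to 35889 in R6/2 HD mice, ranges that did not overlap. In the Q150 set it was 38404 to 45665 in WT (mean 41921 ± 3160, SD, n = 5), 34145 to 41299 in HET (37491 ± 3337, SD, n = 4) and 34275 to 38572 in HOMO mice (36075 ± 1839, SD, n = 4), so that the HOMO range only just reached that of WT. In the Q175 set it was 34755 to 42639 in WT (39434 ± 3024, SD, n = 5), 35293 to 41213 in HET (38660 ± 2666, SD, n = 4) and 36238 to 40960 in HOMO mice (38698 ± 2367, SD, n = 3), overlapping ranges. The oligodendrocyte markers Mag and Mbp, 2 of 7 on the list, summed to 10879 to 13272 CPM in R6/2 WT and 9001 to 13066 in R6/2 HD mice. With Mobp, listed only in the knock-in sets, they summed to 8102 to 13394 CPM in Q150 WT, 9548 to 16675 in Q150 HET and 8160 to 14621 in Q150 HOMO mice. In the Q175 set the sum was 8835 to 11001 in WT, 7830 to 9079 in HET and 6714 to 11418 in HOMO mice, so that all these ranges overlapped WT. Of 5 vascular markers only Pecam1 was listed, with 1 event at 33.4 to 80.6 CPM in the R6/2 set and 42.1 to 137.6 in the Q150 set, and with 2 events at 1129 to 1347 CPM in Q175 WT, 942 to 1145 in Q175 HET and 973 to 1177 in Q175 HOMO mice. These ranges too overlapped WT. No event of the astrocyte, microglial or striatal marker lists was measured. The part of these shifts in the Rsrc1 level was not tested.

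**Figure D4:**
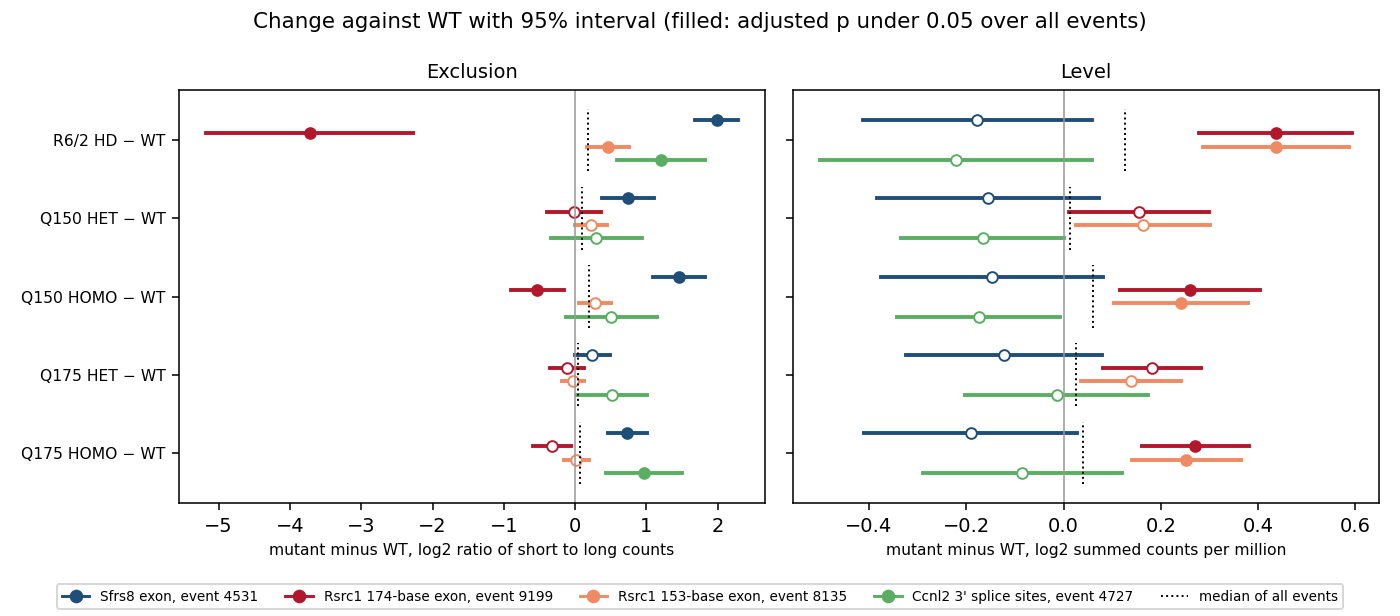
Change against WT with its 95% interval for each event in the 5 mutant groups, left for the log2 short-to-long ratio and right for the log2 level; filled points have an adjusted p under 0.05 over all events and the dotted line is the median of all events. Sfrs8 lies to the right in every group on the left panel (0.24 to 1.98) and the Rsrc1 events lie to the right in every group on the right panel (0.14 to 0.44).

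The events of other genes whose 5 ratio changes against WT were nearest to those of Sfrs8, by root-mean-square difference, among 1594 candidates, were in Acss2 (0.10), Grin1 (0.12) and Mlx (0.15), with changes in R6/2 HD mice of 1.97, 1.97 and 2.19 on the log2 scale. Nearest to Ccnl2 were events of Senp1 (0.10), Tmem164 (0.15) and Aptx (0.17). Nearest to the 153-base Rsrc1 exon were Runx3 (0.04), Asph (0.05) and Epn2 (0.06). The 174-base Rsrc1 exon had no close neighbour, the nearest being in Atpbd4 (0.41; now Dph6), BC068281 (0.65) and Ankrd15 (0.76; now Kank1), with log2 changes of -2.86, -2.38 and -2.23 in R6/2 HD mice. These distances are a description over 5 comparisons, 4 of which share WT mice in pairs.

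Among other SR and SR-related genes, 24 had events, 29 in the R6/2 set and 31 in each knock-in set. Of their ratios, 11 of 29 passed in R6/2 HD mice (9 towards the short form, 2 away from it; 28.6% of all events), with a median log2 change of 0.19 beside 0.18 over all events. In Q150 HET mice 4 of 31 passed, all towards the short form (3.47% of all events), and in Q150 HOMO mice 7 of 31, 6 towards it (23.9% of all events), with medians of 0.22 and 0.16 beside 0.10 and 0.19. In Q175 HET mice 0 of 31 (4 at an unadjusted p under 0.05, limma) and in Q175 HOMO mice 2 of 31 passed, beside 0.598% and 7.07% of all events, with medians of 0.06 and 0.17 beside 0.04 and 0.07. In R6/2 HD mice the largest changes were in Rsrc2, an RS-rich relative of Rsrc1 (98.1% ± 0.249 short against 94.6% ± 1.08, SD, n = 3 and 3), in Bclaf1 (32.1% ± 1.79 against 14.2% ± 3.77), in Rnps1, which encodes a component deposited with the exon junction complex (log2 ratio 1.29 ± 0.22 higher, SE), and in a pair of Rbm5 events (9.39% ± 2.70 against 3.60% ± 1.85, and 7.89% ± 1.04 against 3.51% ± 0.595).

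In Q150 HOMO mice the largest were in 3 Rbm5 events (log2 changes of 2.90, 1.78 and 0.91), in Clk4, a kinase that phosphorylates SR proteins (62.1% ± 8.61, n = 4, against 39.6% ± 5.61, n = 5, SD), and in Rbm16 (1.28; now Scaf8). In Q175 HOMO mice only Bclaf1 (18.4% ± 0.918, n = 3, against 12.1% ± 2.07, n = 5, SD) and Rbm10 (69.7% ± 2.97, n = 3, against 63.7% ± 2.51, n = 5, SD) passed, each towards the short form. For level, 12 of 29 events of these genes passed in R6/2 HD mice, 11 of them higher, beside 44.4% of all events. In Q150 HOMO mice 2 of 31 levels passed, both higher, and in Q175 HOMO mice 4 of 31 did, 3 of them higher, beside 14.1% and 12.8% of all events.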

How the data were processed

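The authors made 1 RASL-seq library per mouse. No molecular identifiers are mentioned in the sources, so copies made by PCR were counted. The deposited counts (unit: other) stand, per the file headers, in a column ending in _s and a column ending in _l for each event. They were taken here as unnormalized short and long junction counts. Commas stand between their digits, and the smallest was 4. The aligner is not given in the sources used here. The submitters' processing notes name mm10 (GRCm38), although only 14% of event positions lie inside the named gene on it. The build of the positions was not determined. The members and gene lists were chosen with earlier results of these data known. Groups came from titles (R6/2) and the glutamine numbers of the genotype field (knock-in). Q150 stands in the title of every knock-in mouse and Q175 at the start of that field in every mutant one, so neither name was used for the line; WT mice went with the mutant mice whose files list the same events.

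Per event, log2((short + 0.5)/(long + 0.5)) and log2 of the summed counts per 1000000 counts of the library (CPM) were fitted with limma 3.58.1 (R 4.3.3), group means over all mice of a set and a variance trend. Events needed a mean of at least 10 counts, which removed none. p-values were Benjamini-Hochberg adjusted over all events. The fits were tested on simulated data. Of the neuronal markers, 1 is not reported here and was left out of the sum. Named events were all events of the 3 genes, the 3 nearest events of other genes to each, and up to 5 of the other SR genes with the largest called changes. Exon identity came from GENCODE vM21 and RefSeq on GRCm38, where 1779 of 1791 cassette spans matched an exon distance. p-values set a difference between group means against the spread between mice within groups, moderated over all events of the set. Figures were drawn with matplotlib.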

Additional observations from a re-analysis of the deposited data

Results flagged for a closer look

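Of 40 groups of 4 or 5 mice checked for a single mouse far from the rest (short share and level of the 4 events), 4 held one, where chance gives about 1 in 20. Q150 WT replicate 5 had a short Sfrs8 share of 77.5%, against 72.0% in the next WT mouse. Q150 WT replicate 2 had a level of 761.1 CPM for the 174-base Rsrc1 exon event, below the next WT mouse at 892.2. Q175 HET replicate 4 had 1861 CPM for the 153-base Rsrc1 exon event, above the next HET mouse at 1708. Q175 WT replicate 7 had 405.9 CPM for Sfrs8, below the next WT mouse at 452.6.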

How the results depend on the processing

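No paired analysis was possible because the replicate numbers of the groups do not link mice. Of the ratios of the 4 events, the number past the threshold changed as follows. The share of all events past it under the same setting is given beside it, except for the fits that left out a mouse. In R6/2 HD mice it was 3 without the variance trend (22.5% of all events), after centring on the median event (27.6%) or with the quasi-binomial model (28.7%), in each case without the 153-base Rsrc1 exon. Without the variance trend it was 0 in Q150 HET (1.68%), 1 in Q150 HOMO mice (19.4%) and 0 in those of Q175 (2.12%) against WT, and 0 in Q150 HOMO against HET mice (1.29%), where it was also 0 after centring on the median event (0.896%), with the quasi-binomial model (2.24%) or with only the 2 groups in the fit (1.79%). With the series of mouse numbers as a term it was 1 in Q175 HOMO mice (4.46%) and 3 in those of Q150 (30.2%). With only the 2 groups in the fit it stayed 2 in Q150 HOMO mice (22.2%), with the 153-base in place of the 174-base Rsrc1 exon. Leaving out each mouse in turn gave 3 to 4 in R6/2 HD mice, 0 to 1 in Q150 HET mice, 1 to 2 in the HOMO mice of each line, and 0 to 1 in HOMO against HET mice of either line. Without the share of all events in those fits, nothing is read from these counts. Of the levels, 2 passed, both of Rsrc1, in Q150 HET mice against all 10 knock-in WT mice, where 9.24% of all events did instead of 0.84%. After centring 1 passed in Q150 HOMO mice (Ccnl2, lower, in place of Rsrc1; 11.9%), and 1 in Q175 HOMO mice with the series term (5.49%) or all 10 WT mice (3.7%). Leaving out each mouse gave 0 to 2 in Q150 HOMO mice, a count from which nothing is read without the share of all events in those fits. The causes were not tested.

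Several differences changed sign. Against all 10 WT mice the 153-base Rsrc1 ratio was -0.054 in Q150 HET mice, where it was 0.22 against the WT mice of the set, and 0.24 in Q175 HET mice, where it was -0.029, and the 174-base ratio 0.042 in Q175 HET mice. After centring the 153-base ratio was -0.023 in Q175 HOMO mice against WT and -0.038 in Q150 HOMO against HET mice, and with the series term the Ccnl2 level was 0.012 in Q175 HET mice. Leaving out each mouse gave -0.103 to 0.069 for the 174-base ratio in Q150 HET mice, -0.026 to 0.060 for the 153-base ratio in Q175 HOMO mice and -0.062 to 0.135 for it in Q150 HOMO against HET mice. The Ccnl2 level then ran from -0.090 to 0.027 in Q175 HET and from -0.194 to 0.041 in Q175 HOMO mice. The short junctions of Ccnl2 and, in R6/2 HD mice, of the 174-base Rsrc1 exon are limited by few counts.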
